A study of Caenorhabditis elegans with 10 samples.

Results

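The genes described here encode the small secreted peptides of Caenorhabditis elegans that fall into 3 named families. These are the FMRFamide-like peptides (flp), the neuropeptide-like proteins (nlp) and the insulin-like peptides (ins). Every gene whose symbol was 1 of these abbreviations with a number was taken from the table of ribosome footprints. Where a gene had several transcripts, the one with the highest mean over 5 conditions stood for it, and a gene was kept when that mean was at least 1 FPKM (fragments per kilobase, here of coding sequence, corrected for depth). The table listed 144 such genes, of which all but 25 were kept, namely 29 of 31 flp, 66 of 75 nlp and 24 of 38 ins genes. They stood among 9945 kept genes of 19985 in the table.

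The footprints came from whole wild-type (N2) animals that were grown at 20°C to the first day of adulthood and then cooled in steps, in 10 libraries of 5 conditions with 2 biological replicates each. One set was collected at 20°C, one after a short stay at 10°C (2 h in the protocol, 3 h in the sample attributes), and the rest were moved on to 4°C and collected on day 1, day 3 or day 5 there. The sample attributes of the day 5 libraries give 3 days at 4°C, whereas their titles and the table give 5, which is used here. The 20°C samples date from the start of cooling, so low temperature and the passing of time cannot be told apart.

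Neuropeptides are made as larger precursors that are cut, trimmed and often amidated inside dense core vesicles, from which they are released to act on receptors of other cells. In the worm the flp genes and most nlp genes are expressed in neurons, and insulin-like peptides are made in neurons, intestine and other tissues and act as agonists or antagonists of the single insulin receptor DAF-2. A numbered run of the nlp family, nlp-24 to nlp-34, is different. It encodes short glycine- and aromatic-rich peptides made largely in the epidermis, several of them known or predicted antimicrobial peptides. The run was read as a group of its own beside the other nlp genes, a choice made with earlier results of these data known.

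The deposited table held 1 pooled value per condition, so no value has a replicate spread, and no test between conditions could be made. The number of footprint counts behind each value was recovered from the table, and every interval below is a 95% interval of counting error alone, with PCR copies counted as reads. Depth ran from 486109 counts at 10°C and 675550 at 20°C to 2657757 on day 1, 2981339 on day 3 and 3058810 on day 5 at 4°C. A single count on 1000 nt of coding sequence equalled 2.06 FPKM at 10°C and 0.327 FPKM on day 5. A member was called higher or lower when its level differed by at least 2-fold, at least 10 counts stood on both sides together, and the interval of the ratio left out 1. Against 0 counts, a lower bound was taken from a floor of 3 counts. A level is a share of all footprints, so a general fall in protein synthesis is not seen, and mRNA amount cannot be told apart from ribosome load per mRNA. Each of intestine, epidermis and neurons had marker genes among the kept genes, such as vit-2, col-19 and snt-1. The limit of 1 FPKM was reached by 4 of 4 intestine, 3 of 4 epidermis and 11 of 20 neuron markers. Of these, snt-1 had 2 counts at 20°C and 1 at 10°C.

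The members were short and thinly covered. Their median coding length was 273 nt, against 939 nt over all kept genes, and it was 282 nt for flp, 259.5 nt for nlp and 319.5 nt for ins. The median level over the 5 conditions was 8.42 FPKM for flp, 6.62 for nlp and 4.17 for ins, beside 8.95 over all kept genes, and 12 flp, 25 nlp and 4 ins genes reached a mean of 10 FPKM. The highest family member was flp-10 among the flp genes at 32.7 FPKM, nlp-27 among the nlp genes at 414 FPKM and ins-17 among the ins genes at 15.6 FPKM. At 20°C and 10°C together, 92 members held at most 3 counts and 23 held none, and at 20°C alone 48 members held exactly 1 count. A difference of a single gene from these 2 conditions could therefore be seen only where it was large, and 20°C against 10°C could be read for 8 members, all of them nlp genes. The sources used here do not say how the replicates were pooled and rounded, and rounding would weigh most on these low counts.

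Of the 25 genes below the limit, 8 had no count in any condition, 7 ins and 1 nlp. The genes nearest the limit were nlp-4 at 1.09, nlp-5 at 1.12 and ins-35 at 1.27 FPKM just inside, with 2, 6 and 2 counts in all, and nlp-63 at 0.967, ins-5 at 0.913 and nlp-32 at 0.833 FPKM just outside, with 3, 4 and 4 counts. The genes left out included nlp-22, whose peptide promotes larval sleep, with 1 count on day 5, and ins-33 and ins-37, with 1 count at 20°C and 4 counts spread over the 4°C days.

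Summed over their members, the flp genes, the ins genes and, without nlp-77, the other nlp genes took a growing share of footprints with time at 4°C, while nlp-24 to nlp-34 went up and then down. The flp genes held 57.7 CPM (counts per 1000000 counts of the condition) at 20°C, 72.0 at 10°C, and 90.3, 106 and 128 on days 1, 3 and 5 at 4°C. The ins genes held 23.7, 39.1, 32.7, 41.9 and 51.3 CPM in the same order. The 9 genes of nlp-24 to nlp-34 held 108.1, 177, 376, 351 and 146, so the sum was highest on days 1 and 3 and on day 5 lay within the interval of the 10°C value, 142 to 218. Among the other nlp genes, nlp-77 alone held 299, 261, 141, 38.2 and 24.8 CPM, and the remaining 56 genes held 138, 171, 199.8, 251 and 300.1. The family as a whole, at 545, 609, 717, 639.6 and 471, thus joined 3 different courses.

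**Figure D1:**
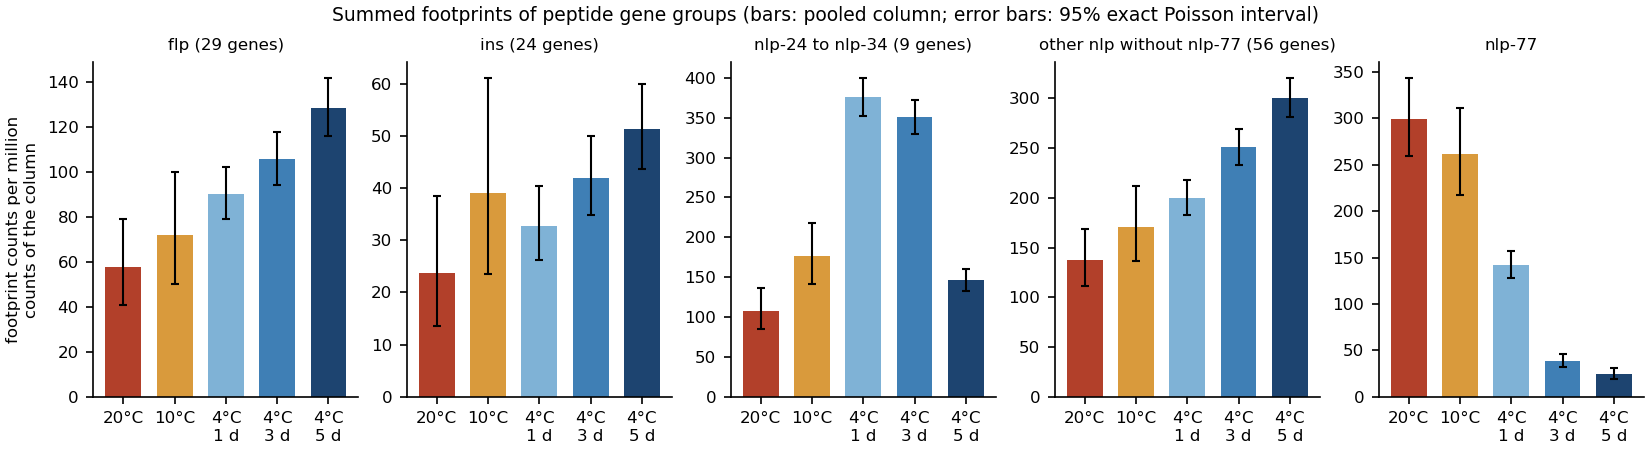
Summed footprint counts of each peptide gene group, in counts per 1000000, CPM (y axis, from 0, each panel with its own scale), for 20°C, 10°C and days 1, 3 and 5 at 4°C (x axis). Bars are the pooled value of a condition and error bars its 95% exact Poisson interval. The flp sum runs from 57.7 at 20°C to 128 on day 5, the nlp-24 to nlp-34 sum peaks at 376 on day 1, and nlp-77 falls to 24.8 on day 5.

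In the cold, with the 3 conditions at 4°C pooled against 20°C and 10°C pooled, the summed level of the flp genes was 1.71-fold higher at 4°C (95% interval 1.35 to 2.20), that of the ins genes was 1.41-fold higher (0.994 to 2.05) and that of the nlp genes 1.06-fold higher (0.975 to 1.15). The intervals of flp and nlp with all members did not overlap, and that of ins overlapped both. On log2(FPKM + 0.5), the median difference over all kept members was 0.62 for flp, 0.59 for nlp and 0.41 for ins. Over all kept genes, which are longer and so not a like comparison, it was 0.14. The 23 members with 0 counts at 20°C and 10°C passed the filter through 4°C alone, so their differences could only be positive. The filter also worked the other way, since 1 count weighed more in the shallow conditions. Thus ins-19 was kept on 1 count at 10°C alone, while nlp-68, with 5 counts, all at 4°C, was not. Over members with at least 10 counts and a ratio or bound, the median log2 ratio was 0.68 for flp, 0.51 for nlp and 0.45 for ins. Over all such genes it was 0.22. Without flp-10, the most translated flp gene, the flp sum was 1.67-fold higher (1.31 to 2.17), and without nlp-77 the nlp sum was 1.87-fold higher (1.67 to 2.09), from 4688 and 335 counts, so the 2 intervals overlapped.

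Few single members passed, which the low counts at 20°C and 10°C limit. Over all genes with at least 10 counts, 12.2% were called higher and 9.14% lower. Of 26 flp genes with enough counts 2 were higher and 0 lower, of 53 nlp genes 4 were higher and 1 was lower, and of 16 ins genes 0 were called in either direction. These shares of higher calls, 6 of 95 members in all, lay below the background. The ratio was above 1 for 22 flp, 38 nlp and 10 ins genes with enough counts, and below 1 for 2, 9 and 4, while a further 2, 6 and 2 had no counts at 20°C and 10°C and too few at 4°C to give a bound above 1. Calls among the flp genes depended on the shallow conditions: without 20°C 0 flp genes were called higher and without 10°C 1, and without 20°C the nlp calls fell from 4 to 2.

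**Figure D2:**
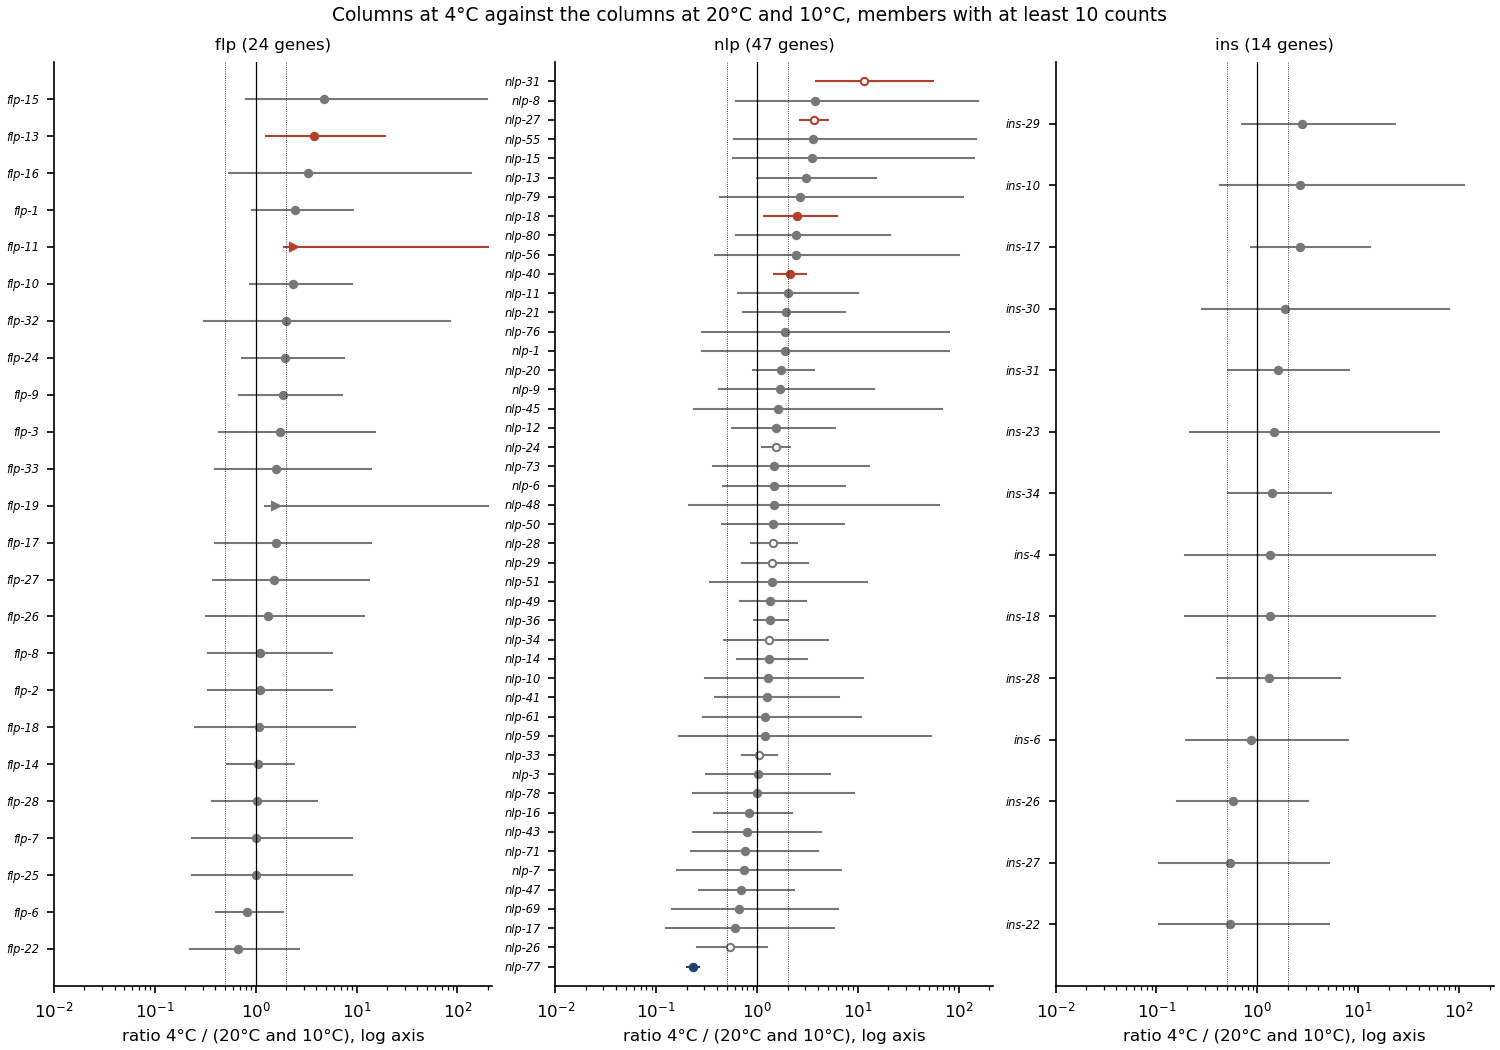
Ratio of the level at 4°C (3 conditions together) to that at 20°C and 10°C together (x axis, log scale) for each flp, nlp and ins gene with at least 10 counts and a ratio or bound (y axis). Points are ratios, right-pointing triangles lower bounds against 0 counts, lines 95% counting intervals, and open points nlp-24 to nlp-34. Red marks the 6 members called higher and blue the 1 called lower, nlp-77, and dotted lines stand at 2-fold in each direction.

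Both flp genes that were called encode peptides that promote sleep. The peptides of flp-11 come from the RIS neuron and maintain sleep during development. Footprints of flp-11 (chromosome X, 4677334 to 4678129, WBcel235) were listed at 0 counts at 20°C and at 10°C, which allows up to 13.3 and 18.5 FPKM, and stood at 7.91 FPKM on day 1, 19.1 on day 3 and 27.5 on day 5. With 54 counts at 4°C against 0, its level was at least 2.40-fold higher in the cold. The peptides of flp-13, released by the ALA neuron, bring about sleep after stress. The level of flp-13 (chromosome IV, 7696932 to 7698420) was 3.06 FPKM at 20°C and 8.52 at 10°C, from 1 and 2 counts, and 10.9, 27.1 and 22.3 FPKM on days 1, 3 and 5, which was 3.83-fold higher at 4°C (1.27 to 18.9). The values on days 3 and 5 lay above those of the other 3 conditions for both genes, but their intervals overlapped those of 10°C.

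Other ALA and sleep peptides in the families were not called between 4°C and the warmer conditions. The nlp-8 gene, another ALA peptide gene, had 1 count at 20°C and 0 at 10°C, and 5.80, 5.82 and 6.93 FPKM on days 1, 3 and 5. The nlp-14 gene, also tied to quiescence in ALA, stood at 8.77, 12.2, 6.69, 11.4 and 20.8 FPKM from 20°C to day 5, with day 5 above the rest. Its level at 4°C was 1.30-fold higher (0.629 to 3.12).

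The remaining flp genes with a known role had levels that the counts could not separate between warm and cold. The locomotion peptide gene flp-1 stood at 5.61, 7.79, 12.8, 15.9 and 18.6 FPKM from 20°C to day 5, a 2.44-fold higher level at 4°C (0.912 to 9.18). The flp-6 gene, expressed in the thermosensory neuron AFD, stood at 11.5, 20.1, 10.3, 12.4 and 14 FPKM, and was 1.23-fold lower at 4°C (0.532 to 2.50). The flp-14 gene stood at 17.1, 19, 13.9, 14.8 and 27.2 FPKM and flp-24 at 14.1, 19.6, 25.1, 36.7 and 34.2 FPKM. All 4 genes had between 2 and 5 counts at 20°C and at 10°C.

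The ligands of the NPR-1 receptor, a brake on foraging and aggregation, were sparse. The flp-18 gene held 1, 1, 3, 6 and 7 counts from 20°C to day 5, and flp-21 held 0, 0, 3, 5 and 2. The flp-17 gene, whose peptides act with those of flp-10 on the EGL-6 receptor to slow egg laying, stood at 3.77, 5.23, 6.70, 9.39 and 4.99 FPKM. Its level at 4°C was 1.60-fold higher with an interval from 0.398 to 14.

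Among the other nlp genes, nlp-40 and nlp-18 were called higher at 4°C and nlp-77 was called lower. The nlp-40 gene encodes the intestinal peptide that times the motor step of defecation through neurons. Its footprints (chromosome I, 11495 to 16837) stood at 147, 192, 266, 345 and 424 FPKM from 20°C to day 5, each condition above the one before it, and were 2.1-fold higher at 4°C (1.48 to 3.08). On the longer of its transcripts, with 372 nt of coding sequence in place of 171 nt, the values were 111, 144, 223, 295 and 398 FPKM. The nlp-18 gene (chromosome II, 11027972 to 11030397) stood at 24.7, 13.7, 28.8, 50.3 and 66.5 FPKM, with days 3 and 5 above the rest, and was 2.46-fold higher at 4°C (1.16 to 6.24).

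The nlp-77 gene was the 1 member called lower. Its footprints (chromosome II, 7790591 to 7791375) stood at 656 FPKM at 20°C and 573 at 10°C, the highest level of any member in both, and at 310.2, 83.9 and 54.5 FPKM on days 1, 3 and 5. The counts were 202, 127, 376, 114 and 76, and the intervals of the 3 days at 4°C lay below those of 20°C and 10°C. The level at 4°C was 4.35-fold lower (3.79 to 4.99). With this 1 gene the other nlp genes together were 1.37-fold lower at 4°C (1.24 to 1.51), and without it they were 1.67-fold higher (1.43 to 1.95), close to the flp value.

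The ins genes gave the fewest counts, and none was called between warm and cold. The highest of them, ins-17, stood at 4.53, 12.6, 12.7, 18.5 and 30.0 FPKM from 20°C to day 5 and was 2.63-fold higher at 4°C (0.856 to 13.1). The level of ins-29 was 6.41, 8.91, 9.77, 20.3 and 29.7 FPKM, a ratio of 2.74 (0.711 to 23.4), and that of ins-28, its neighbour on chromosome I, was 14.5, 10.1, 18.4, 13.2 and 17.6 FPKM, a ratio of 1.29 (0.400 to 6.62). Day 5 was the highest condition for ins-17 and ins-29, and day 1 for ins-28.

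The insulins with known actions on DAF-2 were near the limit of detection. The agonist gene ins-6 stood at 4.37, 6.07, 4.44, 4.95 and 3.86 FPKM, from 1, 1, 4, 5 and 4 counts. The agonist gene ins-4 held 0, 1, 3, 5 and 2 counts, ins-7 held 1, 0, 1, 1 and 0, and ins-35 held 1, 0, 0, 0 and 1. The antagonist genes ins-18 and ins-1 held 0, 1, 2, 2 and 6 counts and 0, 0, 1, 3 and 3 counts. The ins-11 gene had 6 counts on day 3, 1 on day 1 and none elsewhere. At this depth no difference in these genes was detectable.

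Cooling from 20°C to 10°C gave no called member. Over all genes with at least 10 counts 0.744% were called higher and 0.201% lower, and of the 8 members with enough counts 0 were called. The 9 genes of nlp-24 to nlp-34 together were 1.64-fold higher at 10°C (1.18 to 2.27), with 73 counts at 20°C and 86 at 10°C in the shallower library pool. The flp sum was 1.25-fold higher (0.767 to 2.02), the ins sum 1.65-fold higher (0.804 to 3.43), and the other nlp genes 1.01-fold lower (0.844 to 1.21). Except for the first, these intervals included 1.

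On entering 4°C few members were called, and the low depth at 10°C limited which genes could be. From 10°C to day 1 at 4°C, 3 of 33 members with enough counts were called higher and 0 lower, where the background was 6.62% higher and 4.23% lower. The 33 were 7 genes of the nlp-24 to nlp-34 run, 15 other nlp, 7 flp and 4 ins genes. All 3 higher calls lay in the run. They were nlp-24, 2.28-fold (1.53 to 3.54), nlp-27, 2.13-fold (1.37 to 3.51), and nlp-31, 10.1-fold (2.72 to 84.1) from 2 counts. The run as a whole was 2.12-fold higher (1.70 to 2.68), while flp was 1.25-fold higher (0.877 to 1.84) and ins 1.19-fold lower (0.686 to 1.98).

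The genes of the run then followed different courses at 4°C. The nlp-24 gene (chromosome V, 11616376 to 11616828) stood at 122, 220.1, 502, 228 and 49.8 FPKM from 20°C to day 5. The nlp-33 gene (chromosome V, 11147346 to 11147737) stood at 85.5, 155, 308, 61.1 and 11.6 FPKM, highest on day 1 and on day 5 below every other condition. The antimicrobial peptide gene nlp-31 (chromosome V, 3980055 to 3980622) stood at 6.49, 18, 182, 169 and 43.0 FPKM, and nlp-28 at 67.3, 83.1, 150.1, 142 and 29.7 FPKM. Those 2 were high on days 1 and 3 alike.

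The nlp-27 gene (chromosome V, 3989378 to 3989770) stayed high. Its values were 135, 197, 421, 853 and 466 FPKM, highest on day 3, and all 3 days at 4°C lay above 20°C and 10°C. It held 557 of the 1046 counts of the run on day 3 and 312 of 448 on day 5. At lower levels, nlp-29 and nlp-34 were likewise not called lower on day 5 than on day 1. The nlp-30 gene had too few counts on these days for a call. Over the whole cold period nlp-27 was 3.63-fold higher (2.66 to 5.09) and nlp-31 11.4-fold higher (3.84 to 55.4), whereas nlp-24 was 1.53-fold higher (1.13 to 2.11) and nlp-33 1.04-fold higher (0.707 to 1.57). The run was 2.09-fold higher in all (1.78 to 2.47) and 1.56-fold higher without nlp-27 (1.29 to 1.90).

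The nlp-29 gene, the best known of the run for its induction by fungal infection and wounding of the epidermis, was not called in any step. It stood at 26.7, 46.3, 44.1, 61.9 and 41.2 FPKM, and its level at 4°C was 1.41-fold higher (0.712 to 3.18). The nlp-34 gene stood at 16.4, 22.9, 12.5, 46.6 and 14.5 FPKM and nlp-26 at 21.7, 37.7, 30.3, 12.3 and 4.79 FPKM. The nlp-30 gene held 0, 0, 2, 8 and 3 counts.

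**Figure D3:**
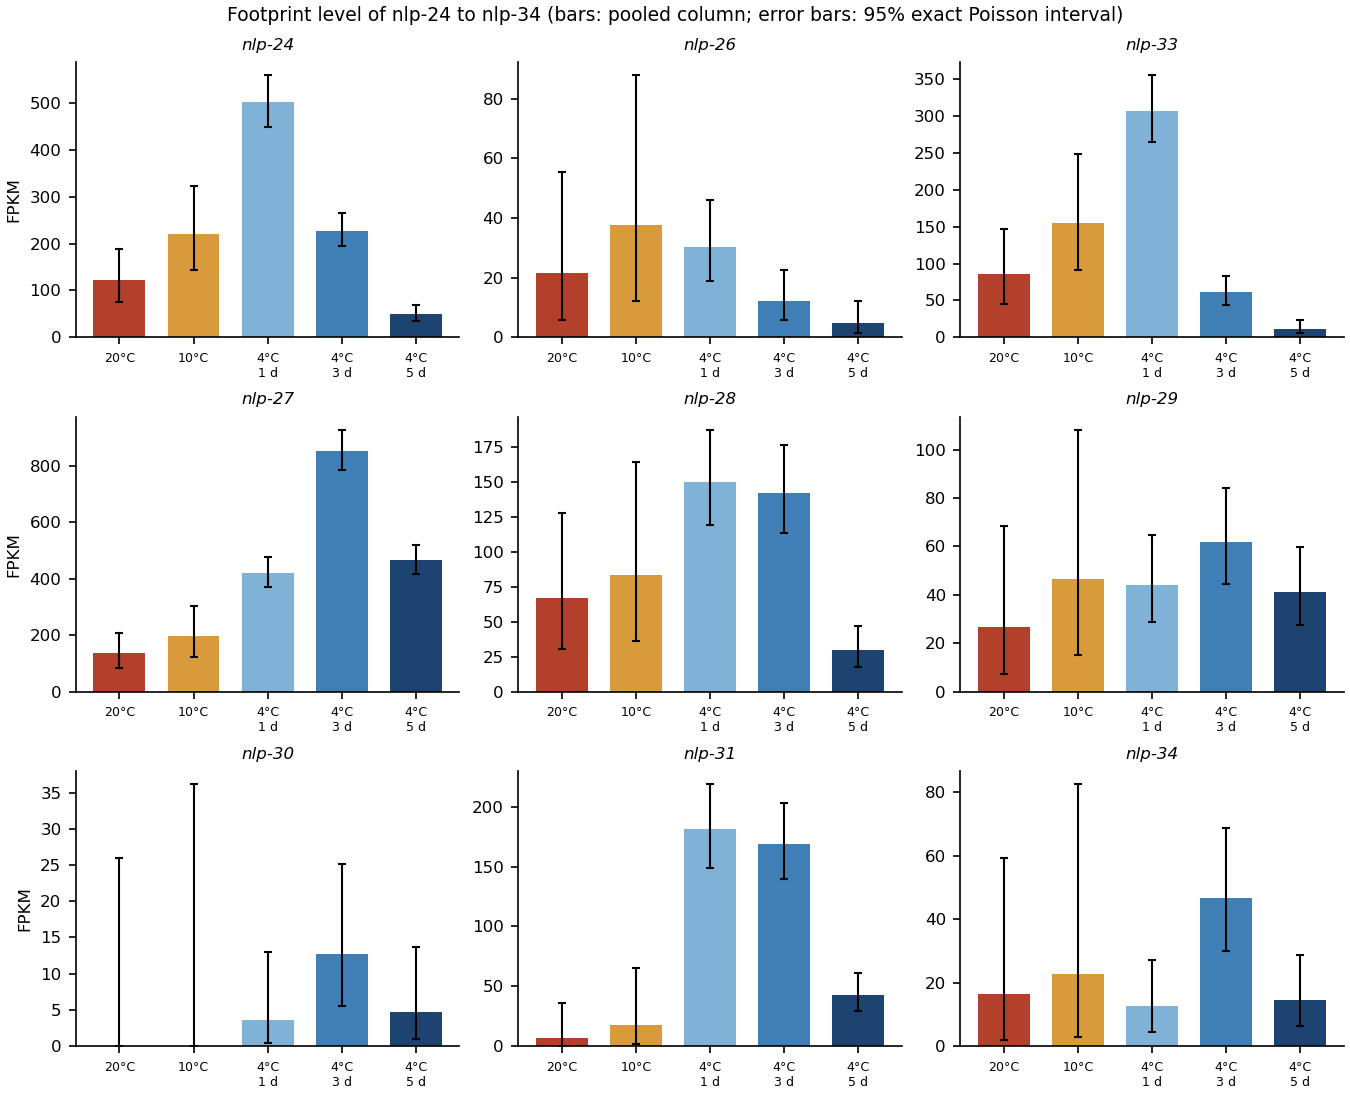
Footprint level in FPKM (y axis, from 0, each panel with its own scale) of the 9 kept genes nlp-24 to nlp-34 at 20°C, 10°C and days 1, 3 and 5 at 4°C (x axis). Bars are the pooled value of a condition and error bars its 95% exact Poisson interval. On day 5 nlp-24 is at 49.8 FPKM and nlp-33 at 11.6, below day 1 at 502 and 308, while nlp-27 remains at 466.

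From day 1 to day 3 at 4°C, 3 of 64 members with enough counts were called higher and 5 lower, beside a background of 2.62% higher and 4.27% lower. Those that were higher on day 3 were flp-13, 2.48-fold (1.32 to 4.95), nlp-27, 2.03-fold (1.74 to 2.37), and nlp-34, 3.71-fold (1.49 to 11.1). Those that were lower were nlp-33, 5.03-fold (3.57 to 7.25), nlp-77, 3.70-fold (2.99 to 4.60), flp-10, 3.10-fold (1.75 to 5.76), nlp-26, 2.47-fold (1.12 to 5.84), and nlp-24, 2.20-fold (1.82 to 2.67). The flp sum without flp-10 was 1.38-fold higher on day 3 (1.14 to 1.66), and with it 1.17-fold higher (0.986 to 1.39).

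From day 3 to day 5 the lower calls all fell in the nlp-24 to nlp-34 run. Of 81 members with enough counts 1 was called higher and 5 lower, beside a background of 1.53% higher and 10.2% lower. The lower ones were nlp-33, 5.26-fold (2.43 to 13), nlp-28, 4.79-fold (2.85 to 8.47), nlp-24, 4.58-fold (3.19 to 6.73), nlp-31, 3.93-fold (2.61 to 6.09), and nlp-34, 3.21-fold (1.40 to 8.22). All 9 genes of the run had a ratio below 1, and their sum was 2.40-fold lower (2.14 to 2.68). The flp sum was 1.22-fold higher (1.05 to 1.42), and so was the ins sum, with an interval from 0.962 to 1.56.

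The higher call was nlp-12, which encodes a cholecystokinin-like peptide of the stretch-sensitive neuron DVA. It stood at 12.2, 16.9, 17, 15.2 and 32.3 FPKM from 20°C to day 5 and was 2.13-fold higher on day 5 than on day 3 (1.00 to 4.81), from 24 and 11 counts. Scaling the conditions by the median ratio of well covered genes left 0 members called higher in this step.

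Across the whole stay at 4°C, from day 1 to day 5, more members were called than in any single step. This comparison was added after the data were seen. Of 74 members with enough counts, 11 were higher on day 5 and 7 lower, where the background was 4.41% higher and 13.8% lower. The 11 that were higher were 4 flp, 2 ins and 5 other nlp genes, and 5 of the 7 that were lower belonged to the nlp-24 to nlp-34 run, with flp-10 and nlp-77 beside them. Over members with at least 10 counts on these days, the median log2 ratio was 0.80 for flp, 0.81 for ins, 0.92 for other nlp and -2.21 for nlp-24 to nlp-34, against -0.03 over all such genes.

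Among the flp genes higher on day 5, flp-11 was 3.48-fold higher than on day 1 (1.48 to 9.43) and flp-13 2.05-fold (1.07 to 4.14). The flp-15 gene stood at 5.61, 0, 7.13, 14 and 24.8 FPKM from 20°C to day 5 and was 3.48-fold higher on day 5 than on day 1 (1.27 to 11.9). The flp-26 gene stood at 11.6, 0, 2.95, 6.58 and 16.7 FPKM, a 5.65-fold difference from 2 and 13 counts (1.28 to 51.5). The value of flp-26 on day 5 was close to that at 20°C, which came from 2 counts.

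Both ins genes were the family's most translated, ins-17 with a 2.37-fold higher level on day 5 (1.15 to 5.24) and ins-29 with a 3.04-fold higher level (1.19 to 9.21). The nlp genes were nlp-80, 3.30-fold (1.19 to 11.3), nlp-14, 3.11-fold (1.61 to 6.49), nlp-21, 2.78-fold (1.33 to 6.34), nlp-13, 2.34-fold (1.21 to 4.82), and nlp-18, 2.30-fold (1.41 to 3.90). For nlp-13 the levels were 3.58, 9.94, 11.8, 16.2 and 27.6 FPKM, for nlp-21 they were 9.87, 4.57, 8.36, 11.9 and 23.2 FPKM, and for nlp-80 they were 6.41, 8.91, 8.14, 17.4 and 26.9 FPKM. In all 3 of these genes day 5 was the highest condition.

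The flp-10 gene was the 1 flp gene called lower on day 5 than on day 1. Its level (chromosome IV, 7868907 to 7870081) was 7.26 FPKM at 20°C and 30.3 at 10°C, from 1 and 3 counts, and 86.7, 28.0 and 11.2 FPKM on days 1, 3 and 5, from 47, 17 and 7 counts. The day 1 value was the highest of any flp gene in any condition, and day 5 was 7.73-fold lower (3.47 to 20.3). Of the lower nlp genes, nlp-33 was 26.5-fold lower on day 5 than on day 1 (13.2 to 62.2), nlp-24 10.1-fold (7.16 to 14.6), nlp-26 6.33-fold (2.15 to 25.3), nlp-77 5.69-fold (4.44 to 7.39), nlp-28 5.05-fold (3.00 to 8.96) and nlp-31 4.22-fold (2.80 to 6.55).

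Sums between these days, taken from the same counts, differed in the same directions. The flp sum was 1.42-fold higher on day 5 (1.21 to 1.68) and 1.74-fold without flp-10 (1.46 to 2.08). The ins sum was 1.57-fold higher (1.20 to 2.06), the other nlp genes without nlp-77 1.5-fold higher (1.35 to 1.67), and nlp-24 to nlp-34 2.56-fold lower (2.29 to 2.87), or 6.37-fold lower without nlp-27 (5.30 to 7.71).

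**Figure D4:**
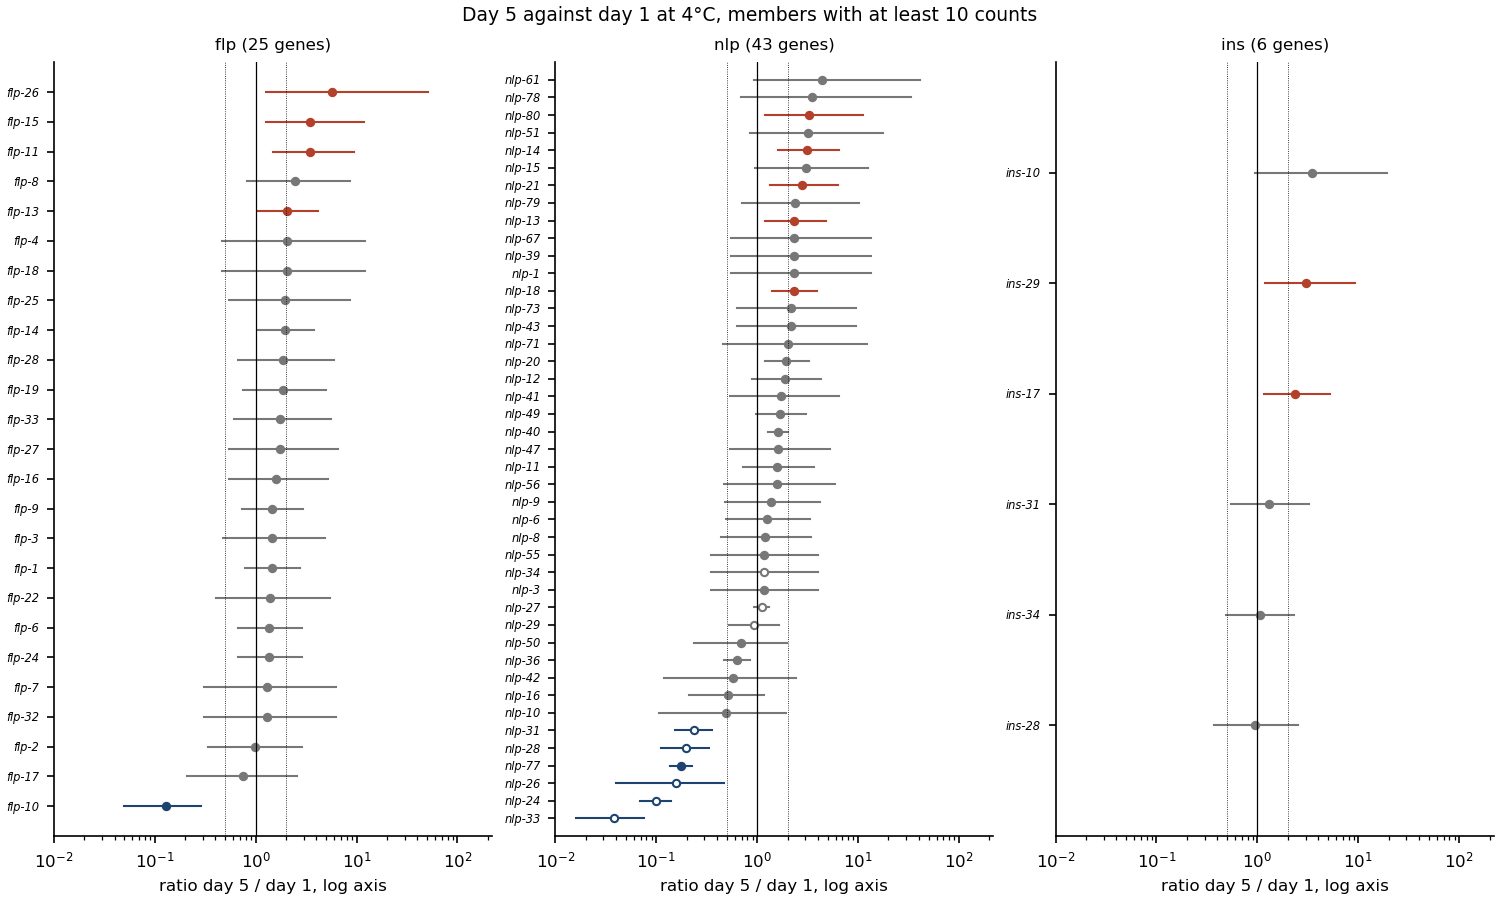
Ratio of the level on day 5 to that on day 1 at 4°C (x axis, log scale) for each flp, nlp and ins gene with at least 10 counts over both days (y axis). Points are ratios, lines 95% counting intervals, open points nlp-24 to nlp-34, red the 11 members called higher, blue the 7 called lower, and dotted lines 2-fold. The only flp gene called lower is flp-10, and the 5 lowest nlp ratios include nlp-33, nlp-24, nlp-26 and nlp-28 of the run together with nlp-77.

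The day on which a member was highest within the 4°C period restates the same counts. It was also added after the data were seen. Over all genes with at least 10 counts on the 3 days, 33.5% were highest on day 1, 31.8% on day 3 and 34.7% on day 5. Of 26 such flp genes 18 (69.2%) were highest on day 5 and 2 on day 1, flp-10 and flp-2. Of 42 other nlp genes 27 (64.3%) were highest on day 5 and 4 on day 1, nlp-16, nlp-36, nlp-42 and nlp-77, and of 14 ins genes 7 were highest on day 5 and 1, ins-28, on day 1. Of the 9 genes of the run 0 were highest on day 5 and 5 on day 1.

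A level that was higher on each later day was seen in 15 of 26 flp genes (57.7%) and 22 of 42 other nlp genes (52.4%). It was seen in 4 of 14 ins genes (28.6%), close to the 24% of all genes. A level that was lower on each later day was seen in 5 of 9 genes of the run (55.6%). It was seen in 4 of 42 other nlp genes (9.52%) and 1 of 26 flp genes (3.85%), beside 25.8% of all genes. The members of one condition share the same libraries, so these genes are not independent of each other.

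Without the rule on counts and intervals, a 2-fold difference on log2(FPKM + 0.5) was common among the members, most of which held at most 3 counts at 20°C and 10°C. Between 4°C and the warmer conditions 42 members were then higher and 7 lower, beside 16.8% and 15.9% of all kept genes. From 20°C to 10°C 28 were higher and 20 lower (12.2% and 9.1% of all kept genes), and from 10°C to day 1 44 and 18 (17.8% and 14.5%). On the deeper days at 4°C the numbers were 24 and 10 from day 1 to day 3 (5.38% and 6.78%), 18 and 12 from day 3 to day 5 (2.85% and 14.7%), and 37 and 11 from day 1 to day 5 (5.78% and 17.5%).

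A few named members showed no call in any comparison. The nlp-49 gene, a ligand of the stress receptor SEB-3, stood at 27, 47, 34.4, 49 and 58.2 FPKM from 20°C to day 5, a 1.35-fold higher level at 4°C (0.681 to 3.05). The nlp-47 gene, which encodes a peptide related to gonadotropin-releasing hormone, stood at 5.48, 30.5, 8.36, 11.2 and 13.3 FPKM, with 4 counts behind its highest value at 10°C. The nlp-3 gene, used by the HSN neurons to stimulate egg laying, was flat at 10.8, 7.54, 8.27, 11.1 and 9.58 FPKM, a ratio of 1.02 (0.309 to 5.33).

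The families differed in their place in the genome, a feature that the selection did not use. Of 29 kept flp genes 13 lay on chromosome X, as did 15 of 66 nlp genes and 0 of 24 ins genes, while all 9 kept genes of nlp-24 to nlp-34 lay on chromosome V. Within that run, nlp-34, nlp-31, nlp-30, nlp-29, nlp-28 and nlp-27 stood side by side over 10946 nt (chromosome V, 3978825 to 3989770), whereas nlp-24, nlp-26 and nlp-33 stood elsewhere on the chromosome. The neighbours held 53.3, 78.2, 176, 278 and 130.4 CPM from 20°C to day 5, highest on day 3. The adjacent genes nlp-27 and nlp-28 stood at 466 and 29.7 FPKM on day 5, after 853 and 142 on day 3, while nlp-24 and nlp-33, which lie apart, were both highest on day 1.

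An array of 7 insulin genes on chromosome I (14012369 to 14037777), from ins-28 and ins-29 to ins-26, kept 6 members. They held 10.4, 8.23, 10.2, 13.8 and 15.7 CPM, with ins-29 the one that was called between days 1 and 5. Of a second array of 6 genes around ins-4 and ins-6 on chromosome II (5988524 to 6011321), the 5 kept genes held only 1, 3, 11, 19 and 13 counts. No member overlapped the coding sequence of another gene.

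Of the genes for enzymes and vesicle proteins that make and release these peptides, 6 of 14 with enough counts were called higher in the cold and 0 lower, against the background of 12.2% and 9.14%. The ratio was above 1 for 12 of the 14 and below 1 for 2. The list, chosen with earlier results of these data known, had 20 genes, of which 15 were kept. Their summed level was 2.31-fold higher at 4°C (1.99 to 2.68). The proprotein convertase gene egl-3 was 3.39-fold higher (1.99 to 6.26) and the carboxypeptidase gene egl-21 2.35-fold (1.48 to 3.95). The amidation enzyme genes pghm-1 and pgal-1 were 3.91-fold (1.49 to 14.6) and 2.91-fold higher (1.21 to 9.15), the convertase chaperone gene sbt-1 2.12-fold (1.12 to 4.51), and unc-108, which encodes the small GTPase RAB-2, 2.47-fold (1.93 to 3.19).

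The sum of the processing list was 151, 183, 306, 401 and 421 CPM from 20°C to day 5, and from day 3 to day 5 it was 1.05-fold higher (0.969 to 1.14). Of its 14 genes with enough counts, 2 were called higher on day 5 than on day 1 and 0 lower. Over all such genes 4.41% were called higher and 13.8% lower. The 2 were egl-21, by 2.24-fold (1.66 to 3.08), and sbt-1, by 2.08-fold (1.37 to 3.22). Footprints of egl-21 stood at 10.4, 13, 15.9, 28.1 and 35.7 FPKM and those of sbt-1 at 11.6, 16.2, 19.5, 24.8 and 40.6 FPKM.

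**Figure D5:**
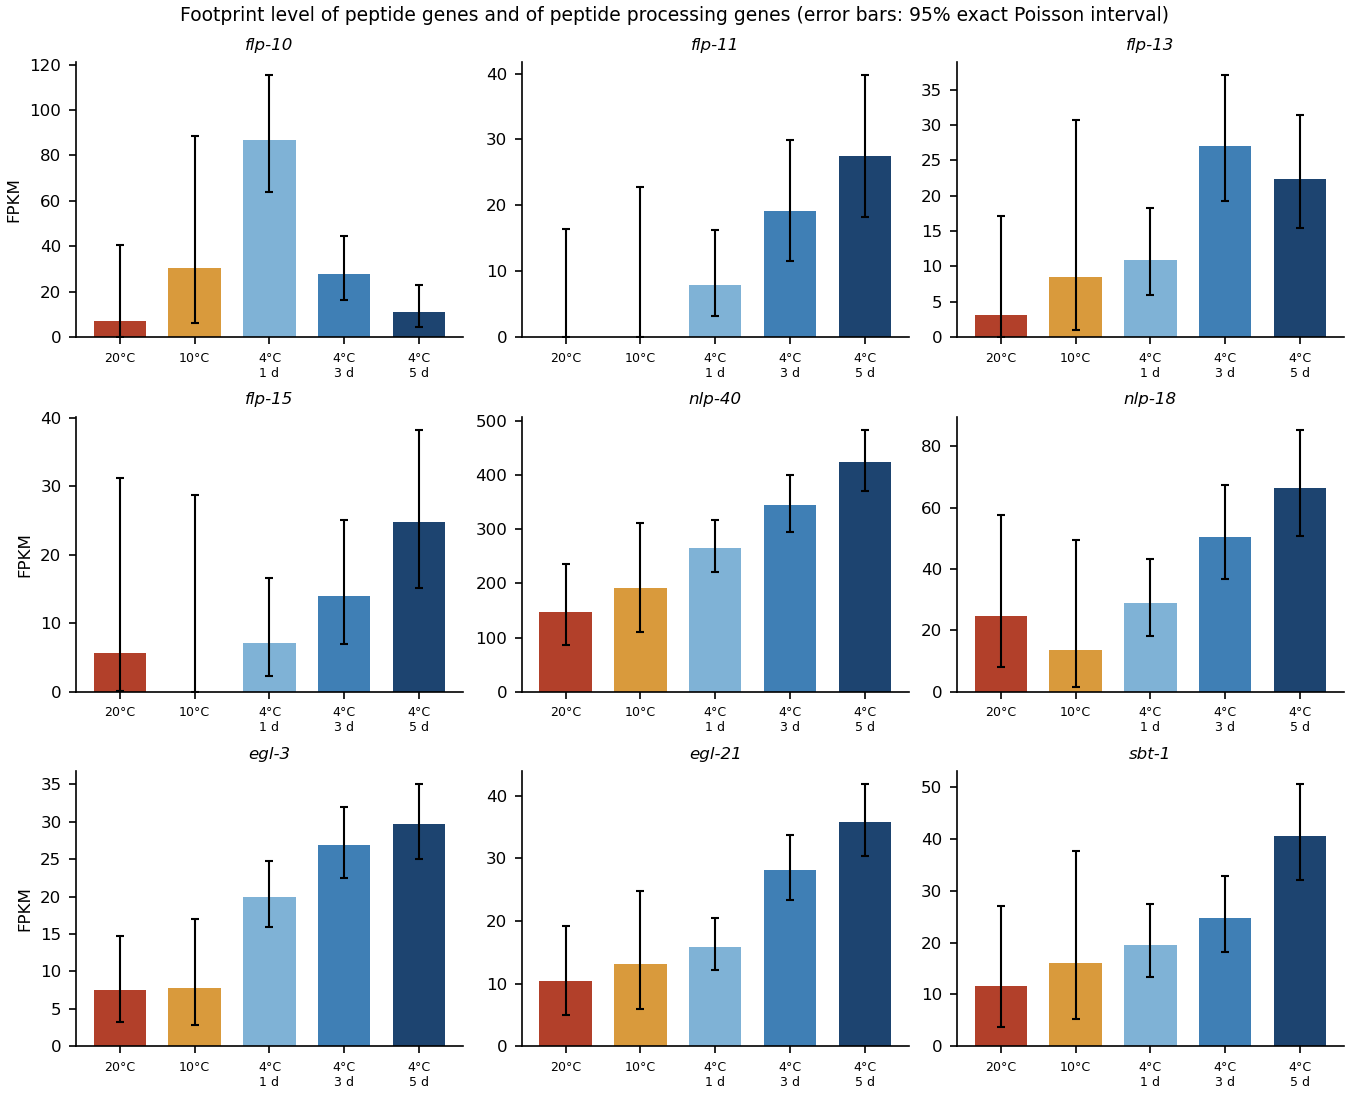
Footprint level in FPKM (y axis, from 0, each panel with its own scale) of 6 peptide genes (flp-10, flp-11, flp-13, flp-15, nlp-40, nlp-18) and of 3 peptide processing genes (egl-3, egl-21, sbt-1) at 20°C, 10°C and days 1, 3 and 5 at 4°C (x axis). Bars are the pooled value of a condition and error bars its 95% exact Poisson interval. Apart from flp-10, highest on day 1 at 86.7 FPKM, and flp-13, highest on day 3 at 27.1, every gene shown is highest on day 5.

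The summed level of neuron marker genes was also higher in the cold, with most of its counts in a few genes. Of 20 neuron marker genes 11 were kept, with cat-2, cha-1, eat-4, tph-1, unc-10, unc-13, unc-18, unc-47 and rgef-1 below 1 FPKM. Their sum was 1.72-fold higher at 4°C (1.41 to 2.12), and it held 75.5, 113, 136, 164 and 168 CPM from 20°C to day 5. Of the 11 genes, 3 were called higher and 1 lower (12.2% and 9.14% over all genes). The ratio was above 1 for 9 and below 1 for 2. Of the 1366 counts at 4°C, snb-1 held 498, egl-21 334 and sbt-1 159. The sum on day 5 was 1.24-fold above day 1 (1.08 to 1.42), but 5 of the 11 had a day 5 to day 1 ratio above 1 and 6 below, with a median log2 ratio of -0.09. Of these genes unc-64, which encodes a syntaxin, was called lower on day 5 than on day 1, by 2.62-fold (1.24 to 5.89), and 2 of the 11 were highest on day 5. The part of the neuron share in the flp and nlp levels was not tested, and in whole animals more neuronal RNA and more RNA per neuron cannot be told apart. The list shares egl-21, sbt-1, ida-1 and rab-3 with the processing genes. Apart from these and snb-1, the ratios at 4°C were mixed. The unc-64 gene was 4.47-fold higher (1.19 to 37.7), and unc-119, the marker called lower, was 2.09-fold lower (1.00 to 4.03). The ric-4, snt-1, unc-17 and unc-25 genes ran from 1.29-fold higher to 1.15-fold lower, with intervals that included 1.

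The sums of the epidermis and the intestine markers were lower in the cold, each set by 1 gene. The 3 kept epidermis markers summed to a 20.0-fold lower level at 4°C (16.8 to 23.9), set by the adult cuticle collagen col-19, the 1 of the 3 called lower. The ratio was below 1 for 2 of the 3 and above 1 for 1. The other gene below 1, dpy-7, stood at 3.09, 4.30, 1.97, 2.45 and 0.683 FPKM, from 2, 2, 5, 7 and 2 counts. The antimicrobial gene cnc-2, also epidermal, stood at 0, 32.7, 23.9, 31.9 and 20.8 FPKM and was 1.87-fold higher at 4°C (0.598 to 9.43). The 4 intestine markers were 1.60-fold lower in sum (1.57 to 1.63), set by the yolk protein gene vit-2, and from day 1 to day 5 they were 6.98-fold lower. Of the 4, pho-1, an acid phosphatase gene, was called lower at 4°C (background 9.14%). The elt-2 gene, which encodes the intestinal GATA factor, was 2.05-fold higher (0.906 to 5.72), and the other 3 ratios were below 1. From day 1 to day 3 elt-2 was called higher, by 2.54-fold (1.5 to 4.46; background 2.62%). In the same step ges-1 and pho-1 were called lower (4.27%). From day 3 to day 5 elt-2 and vit-2 were called lower (10.2%). From day 1 to day 5 ges-1, pho-1 and vit-2 were called lower (13.8%), and all 4 had a ratio below 1. The part of these tissues in the levels of the epidermal nlp-24 to nlp-34 run and the intestinal nlp-40 was not tested.

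Of 10 peptide genes outside the 3 families 8 were kept and 7 had enough counts, of which 1 was called higher at 4°C and 0 lower, beside 12.2% and 9.14% over all genes. Their sum was 1.66-fold higher at 4°C (1.08 to 2.70). The snet-1 gene, whose peptide acts in olfactory plasticity, was called higher, 3.84-fold (1.46 to 14.3), and was 2.28-fold higher on day 5 than on day 1 (1.35 to 3.96). The insulin-like gene daf-28, which the naming rule leaves out, held 3, 1, 4, 4 and 4 counts.

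The receiving side was hardly covered. Of 96 neuropeptide receptor genes 6 were kept (egl-6, frpr-19, npr-17, npr-23, pdfr-1 and seb-2), and 0 of these were called at 4°C. The insulin receptor daf-2 itself was below the limit. Of 17 genes in and around the insulin pathway 15 were kept, with 3 called higher at 4°C and 0 lower, beside the background of 12.2% and 9.14%. Their sum was 1.01-fold higher at 4°C (0.976 to 1.05), but the 14-3-3 protein genes par-5 and ftt-2 held 12871 and 6051 of its 23547 counts at 4°C, par-5 being 1.21-fold lower (1.15 to 1.27) and ftt-2 1.33-fold higher (1.22 to 1.45). The median log2 ratio over the 15 genes was 0.39, with 10 above a ratio of 1 and 5 below. Among them the kinase gene akt-2 was 4.67-fold higher at 4°C (2.43 to 10.3), the FOXO transcription factor gene daf-16 3.10-fold (2.04 to 4.93) and the deacetylase gene sir-2.1 2.45-fold (1.34 to 4.99).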

How the data were processed

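Monosome-protected fragments were sequenced from 10 libraries, and the deposited FPKM table held 1 pooled value per transcript and condition (5 conditions, 2 replicates each). Per the study's methods, the authors aligned footprints to WBcel235 by STAR 2.7.11b once adapter (fastp 0.23.4) and rRNA sequence had been taken out, all under ORFik, and took expression values from DESeq2 1.42.1. For the way of pooling, the annotation release and the strand setting of the counting: not given in the sources used here. Another column of the table, 1 in number, matched no sample and was not used.

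FPKM was multiplied by coding length (Ensembl release 115, all 31865 transcript rows matched). Dividing by the most frequent product of a condition, taken as 1 count, gave whole counts for 100% of values within 0.02. At 20°C and 10°C, 2087 genes with 2 to 4 counts had a mean squared z of 0.500, where independent reads give 1, so these counts vary less than reads would. They may be rounded means of the replicates, in which case rounding could shift low counts at 20°C and 10°C, which was not tested. Ratios carry 95% Clopper-Pearson intervals and sums exact Poisson intervals, for counting error only.

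Named were members called in a planned comparison, the 3 most translated of each family and a list of members with known roles. Members and lists, the nlp-24 to nlp-34 group included, were chosen with earlier results of these data known. Day 5 against day 1, the highest day, the sums without single genes and the left-out conditions were added after the data were seen, and genes called only there are named from them. Alternatives were a 2-fold rule alone on log2(FPKM + 0.5, 0.1 or 1), no filter or a mean of 5 FPKM, scaling by the median ratio of 429 genes with at least 100 counts, and the transcript with the most counts. Steps were tested on simulated counts with 200 changed genes. Software was SciPy 1.17.1, NumPy 2.4.6, Matplotlib 3.10.9 and pandas 2.3.3 under Python 3.11.15.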

Additional observations from a re-analysis of the deposited data

How the results depend on the processing

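No paired analysis was possible because the table pools the replicates of each condition. Direction under the alternatives was checked only for warm against cold. There no called member and no family sum with an interval leaving out 1 turned direction. Single members were not rechecked with a condition left out, and calls between single conditions were compared by number only. The nlp ratio, 1.06 with an interval that included 1, fell below 1 without day 1 (0.970) and without 20°C (0.992). Of 169 counts and shares 54 moved beyond 1.5 times the main count or its counting error, and 266 warm against cold differences of 39 single members stayed within the counting interval of the main value. Nearly all that moved came from the 2-fold rule alone, which also takes differences of 1 or 2 counts. Given for pseudocounts of 0.5, 0.1 and 1, warm against cold then had 9, 9 and 9 of 29 flp genes higher. Of 66 nlp genes 25, 25 and 25 were higher and 3, 3 and 3 lower. Of 24 ins genes 8, 8 and 8 were higher and 4, 5 and 4 lower, and at 0.1 also 1 flp gene was lower. The background at 0.5 was 16.8% higher and 15.9% lower. Higher and lower members became 28, 28, 28 and 20, 20, 19 from 20°C to 10°C, 44, 44, 44 and 18, 18, 18 from 10°C to day 1, 24, 28, 16 and 10, 13, 8 from day 1 to day 3, 18, 18, 16 and 12, 13, 12 from day 3 to day 5, and 37, 41, 28 and 11, 12, 11 from day 1 to day 5. From day 3 to day 5, members called higher were 0 with scaled conditions and 2 on the transcript with the most counts, against 1. Leaving out each condition in turn gave 0 to 3 flp genes higher, 2 to 6 nlp genes higher, 1 to 3 nlp genes lower and an nlp ratio of 0.970 to 1.18, the ends being without day 1 and without day 5. The cause was not tested. Depth limits 20°C and 10°C most, where 38 and 41 members had 0 counts, against 4 on day 5.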
